A study of Mus musculus with 72 samples.

Results

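The MC38 cohort comprised 8 C57BL/6N mice, 4 implanted with MC38 tumour cells and 4 given PBS, and was drawn from a study of 36 animals and 72 libraries. Each mouse contributed bead-bound hepatocyte nuclei and, as a separate library, the nuclei of the whole liver, so that the cohort held 16 of the 72 libraries. The members were all libraries whose names carry MC38, in both nuclear fractions, and the libraries of an animal were joined by the animal number in the labels. MC38 is a mouse colon carcinoma line, and the labels describe its bearers as having weight-stable cancer, whereas animals with the C26 and 8025 tumours of the same study are labelled as cachectic or, for part of the C26 animals, pre-cachectic. All 8 mice, controls included, carried the genotype CAG-Sun1/sfGFP, Albumin-Cre (Hep-INTACT), in which a Cre driven by the albumin promoter of hepatocytes switches on a fluorescent nuclear envelope protein, so that beads can retain tagged nuclei. Livers were taken at zeitgeber time 9 h. The text calls the tumour-bearing animals TUM 1 to TUM 4 and the PBS animals PBS 1 to PBS 4; the replicates are separate animals by the animal numbers of the labels, and sex and age are not in the sources used here.

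The liver responds to inflammation elsewhere in the body through cytokines such as interleukin 6, which act through STAT3 and raise the synthesis of secreted acute phase proteins (serum amyloid A, fibrinogen, orosomucoid, hemopexin). Hepatocyte metabolism is also set by glucocorticoids, growth hormone and insulin, each with well-known target genes in this tissue. Nuclear RNA holds many unspliced transcripts and reports recent transcription more closely than cytoplasmic RNA does. A change that arises in hepatocytes would be seen in both fractions, because hepatocyte nuclei make up much of the whole liver preparation, whereas RNA of Kupffer cells, endothelium or recruited leukocytes is depleted by the beads.

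Total counts were 18.9 to 29.5 M in the 8 hepatocyte libraries and 12.9 to 28 M in the 8 whole liver libraries, the lowest being that of TUM 1. The hepatocyte identity of the bead fraction was checked with fixed markers. Alb, the main plasma protein of hepatocytes, lay at 2640 to 6320 CPM (counts relative to library size after TMM scaling) in hepatocyte nuclei, and the summed endothelial list at 99.1 to 269 CPM against 1350 to 1840 CPM in whole liver nuclei. The hepatocyte list summed to 13000 to 21700 CPM in hepatocyte and 12400 to 20300 CPM in whole liver nuclei, so it does not tell the fractions apart. The 5 genes that collect rRNA-like reads took 1.45% to 3.49% of the counts of the bead fraction and 1.77% to 3.61% of those of whole liver nuclei. Colon epithelium genes, listed to look for tumour RNA in the liver, summed to 91.9 to 127 CPM in tumour-bearing and 115 to 135 CPM in PBS animals in hepatocyte nuclei, and to 91.3 to 115 and 105 to 134 CPM in whole liver nuclei. Y-linked genes summed to 544 to 649 CPM over the 16 libraries.

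No gene was called between the groups in either fraction at an adjusted p under 0.05. The edgeR quasi-likelihood test called 0 of 13274 genes (0%) in hepatocyte nuclei, with 572 at an unadjusted p under 0.05 and a smallest adjusted p of 0.0753. In whole liver nuclei it called 0 of 13738 genes (0%), with 790 at an unadjusted p under 0.05 and a smallest adjusted p of 0.0675. With both libraries of an animal summed, so that each animal gave 1 value, edgeR called 0 of 14258 genes (0%), with 628 at an unadjusted p under 0.05 and a smallest adjusted p of 0.0844. Consequently 0 of the 13158 genes tested in both fractions (0%) were called in both. Other tools placed a few genes past the threshold: DESeq2 called 6 genes in the bead fraction, 14 in the whole liver and 8 in the sums, and limma voom with the animal as a correlated block called 22 in both libraries of an animal jointly. The 6 genes that DESeq2 called in both fractions were Acat1, Cxcl14, Fgl1, Fst, Nampt and Spg20, all higher in tumour-bearing animals.

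Below the threshold, 309 of the 13158 genes had an unadjusted p under 0.05 in both fractions with the same sign, 201 higher and 108 lower in tumour-bearing animals, and 0 had opposite signs. The fractions come from the same livers, so this count does not add independent evidence. All 4 tumour values lay above all 4 PBS values in both fractions for 48 genes, and below them for 52 genes, together 0.76% of the genes tested in both. With 4 against 4 animals some genes separate by chance, so this share is a description and no evidence of a tumour effect. Besides the genes described next, those higher without overlap included the fibrinogen chains Fga and Fgg and the heme-binding plasma protein Hpx. Those lower without overlap included Agxt, which detoxifies glyoxylate in the liver, and Mup3, a major urinary protein whose reads its close copies may share. Agxt measured 9.56 to 12.9 against 17.3 to 23.7 CPM in hepatocyte nuclei, and Mup3 85.1 to 160 against 171 to 365 CPM, with log2 fold changes of the sums of -0.80 and -1.01 (edgeR adjusted p = 1 and 0.743).

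Both fractions of an animal deviated alike. For each gene the log2 CPM of an animal was set against the median of the 8 animals in the same fraction, over the 10987 genes that averaged 1 CPM or more in each fraction. The correlation of these differences across genes between the libraries of an animal was 0.662 to 0.842, while the highest correlation with the whole liver library of any other animal was 0.0857 to 0.228. Each of the 8 hepatocyte libraries thus lay closest to its own whole liver library. Genes are not independent replicates, and the values describe the libraries only.

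The following 11 genes had an unadjusted p under 0.001 in both fractions and were chosen after their values were seen. They are ordered by role, from secreted proteins to enzymes and other cell proteins, and edgeR adjusted p-values are given for the sums over both libraries of an animal.

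Fgl1 (chromosome 8, 41191434 to 41215156, mm10 gene span with introns, as for all positions here) encodes a fibrinogen-like protein secreted by hepatocytes. In hepatocyte nuclei it measured 32.6, 311, 43.6 and 90.6 CPM in TUM 1 to 4 and 8.2, 13, 15.1 and 14.8 CPM in PBS 1 to 4. Whole liver nuclei gave 33.2, 294, 42.6 and 92.6 CPM against 9.66, 14.3, 15.5 and 13.4 CPM. The groups did not overlap in either fraction, and TUM 2 was highest in both. The fitted difference was 9.13-fold (log2 fold change 3.19, SE 0.64, edgeR adjusted p = 0.0981). Without TUM 2 the log2 fold change was 2.12, still with every tumour value above every PBS value.

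Fst (chromosome 13, 114452262 to 114458951) encodes follistatin, a secreted antagonist of activins that the liver releases into blood. Its level in hepatocyte nuclei was 6.13, 11.4, 14 and 7.62 CPM in TUM 1 to 4 against 2.77, 3.93, 1.35 and 0.908 CPM in PBS 1 to 4. The whole liver values were 6.27, 10.2, 10.9 and 5.53 CPM against 2.59, 3.2, 0.699 and 1.3 CPM. No tumour value fell within the PBS range in either fraction, and the log2 fold change of the sums was 2.09 (SE 0.45, edgeR adjusted p = 0.153).

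Cxcl14 (chromosome 13, 56288643 to 56296551), a chemokine gene, was nearly silent in all PBS animals and in TUM 1. Hepatocyte nuclei of TUM 2, 3 and 4 held 31, 34 and 59 counts, whereas TUM 1 held 1 count and PBS 1 to 4 held 1, 1, 0 and 0. Whole liver nuclei held 27, 17 and 32 counts in TUM 2, 3 and 4, with 0 in TUM 1 and 3, 1, 4 and 1 in PBS 1 to 4. A count of 0 allows up to 0.122 and 0.16 CPM in PBS 3 and PBS 4 of hepatocyte nuclei and 0.241 CPM in TUM 1 of whole liver nuclei, taking 3 counts as the limit and covering counting error only. The levels of TUM 2, 3 and 4 were 1.31, 1.27 and 1.95 CPM in hepatocyte nuclei, and their whole liver levels were 1.51, 0.763 and 1.32 CPM. Fitted on so few counts, the log2 fold change of the sums was 4.15 (SE 0.76, edgeR adjusted p = 0.0844). Leaving out TUM 1 gave 4.54 and an edgeR adjusted p of 0.00107. TUM 1 was the tumour-bearing animal without the gain, so its omission favours a call. Over the alternative fits with edgeR, DESeq2 or limma the adjusted p of the sums reached 0.402.

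Rarres1 (chromosome 3, 67478886 to 67515523), a retinoic acid responder gene, and Ctsc (chromosome 7, 88278085 to 88315861), which encodes the lysosomal protease cathepsin C, stood far higher in TUM 2 than in any other animal. Rarres1 measured 26.2, 206, 18.7 and 33.6 CPM in the hepatocyte nuclei of TUM 1 to 4 against 13.2, 7.86, 20.5 and 14 CPM in PBS 1 to 4. Ctsc measured 11.5, 179, 28.7 and 9.14 CPM against 9.75, 7.13, 12.1 and 8.66 CPM. In whole liver nuclei the values of TUM 2 were 188 CPM for Rarres1 and 207 CPM for Ctsc, with PBS ranges of 6.54 to 22.9 and 19.8 to 25.4 CPM. The log2 fold changes of the sums were 2.28 for Rarres1 (SE 0.59) and 2.06 for Ctsc (SE 0.53), each with an edgeR adjusted p of 0.558, and without TUM 2 they were 0.91 and 0.56.

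Nampt (chromosome 12, 32820335 to 32853369) encodes the rate-limiting enzyme of NAD salvage from nicotinamide. Hepatocyte nuclei gave 337, 406, 265 and 431 CPM in TUM 1 to 4 and 128, 165, 184 and 156 CPM in PBS 1 to 4. The whole liver values were 314, 386, 262 and 409 CPM against 114, 163, 180 and 152 CPM. The lowest tumour animal, TUM 3, lay above the highest PBS animal, PBS 3, in both fractions. The difference was 2.27-fold (log2 fold change 1.19, SE 0.25, edgeR adjusted p = 0.106).

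Acat1 (chromosome 9, 53580522 to 53610350) encodes the mitochondrial acetoacetyl-CoA thiolase of ketone body and isoleucine metabolism. It measured 201, 257, 287 and 282 CPM in hepatocyte nuclei of TUM 1 to 4 against 149, 153, 158 and 126 CPM in PBS 1 to 4, and 182, 229, 265 and 259 CPM in whole liver nuclei against 139, 144, 144 and 121 CPM. The PBS values lay close together, and TUM 1 was the nearest tumour animal to them. The sums differed 1.74-fold (log2 fold change 0.80, SE 0.16, edgeR adjusted p = 0.0981), and without TUM 1 the log2 fold change was 0.90 with an edgeR adjusted p of 0.0416. Leaving out the tumour-bearing animal nearest to the PBS animals favours a call. Over the alternative fits with edgeR, DESeq2 or limma the adjusted p of the sums reached 0.479.

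Spg20 (chromosome 3, 55112108 to 55137332) encodes spartin, a protein of lipid droplets and endosomes. Its values in hepatocyte nuclei were 53.5, 43.9, 44.4 and 38.9 CPM in TUM 1 to 4 and 21, 23.3, 29.8 and 30.5 CPM in PBS 1 to 4. The whole liver values were 45.2, 46.9, 38.7 and 38.3 CPM and 22.5, 23.7, 29.2 and 32.8 CPM. The groups were separate in both fractions at a log2 fold change of 0.74 (SE 0.15, edgeR adjusted p = 0.0981).

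The remaining 3 genes had smaller or less even differences. Fam160a1 (chromosome 3, 85660063 to 85746209) measured 49.1 to 72.3 CPM in the hepatocyte nuclei of tumour-bearing animals and 33.6 to 43.9 CPM in PBS animals, with TUM 4 lowest and close to the PBS range. Gbp2b (chromosome 3, 142594847 to 142619176), an interferon-induced GTPase gene whose reads its close paralogs may share, measured 0.696 to 1.12 against 0.104 to 0.531 CPM in hepatocyte nuclei. Its whole liver values were higher, at 3.86 to 10.3 against 1.28 to 5.14 CPM, and TUM 1 overlapped the PBS animals there. Pcdh1 (chromosome 18, 38196694 to 38209762), a protocadherin gene, was the only one of the 11 that was lower, at 34.8 to 40.5 against 51.6 to 67.3 CPM in hepatocyte nuclei and 29.1 to 34.7 against 48.6 to 64.5 CPM in whole liver nuclei. The log2 fold change of the sums was 0.66 for Fam160a1 (edgeR adjusted p = 0.527), 1.23 for Gbp2b (0.701) and -0.67 for Pcdh1 (0.167).

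**Figure D1:**
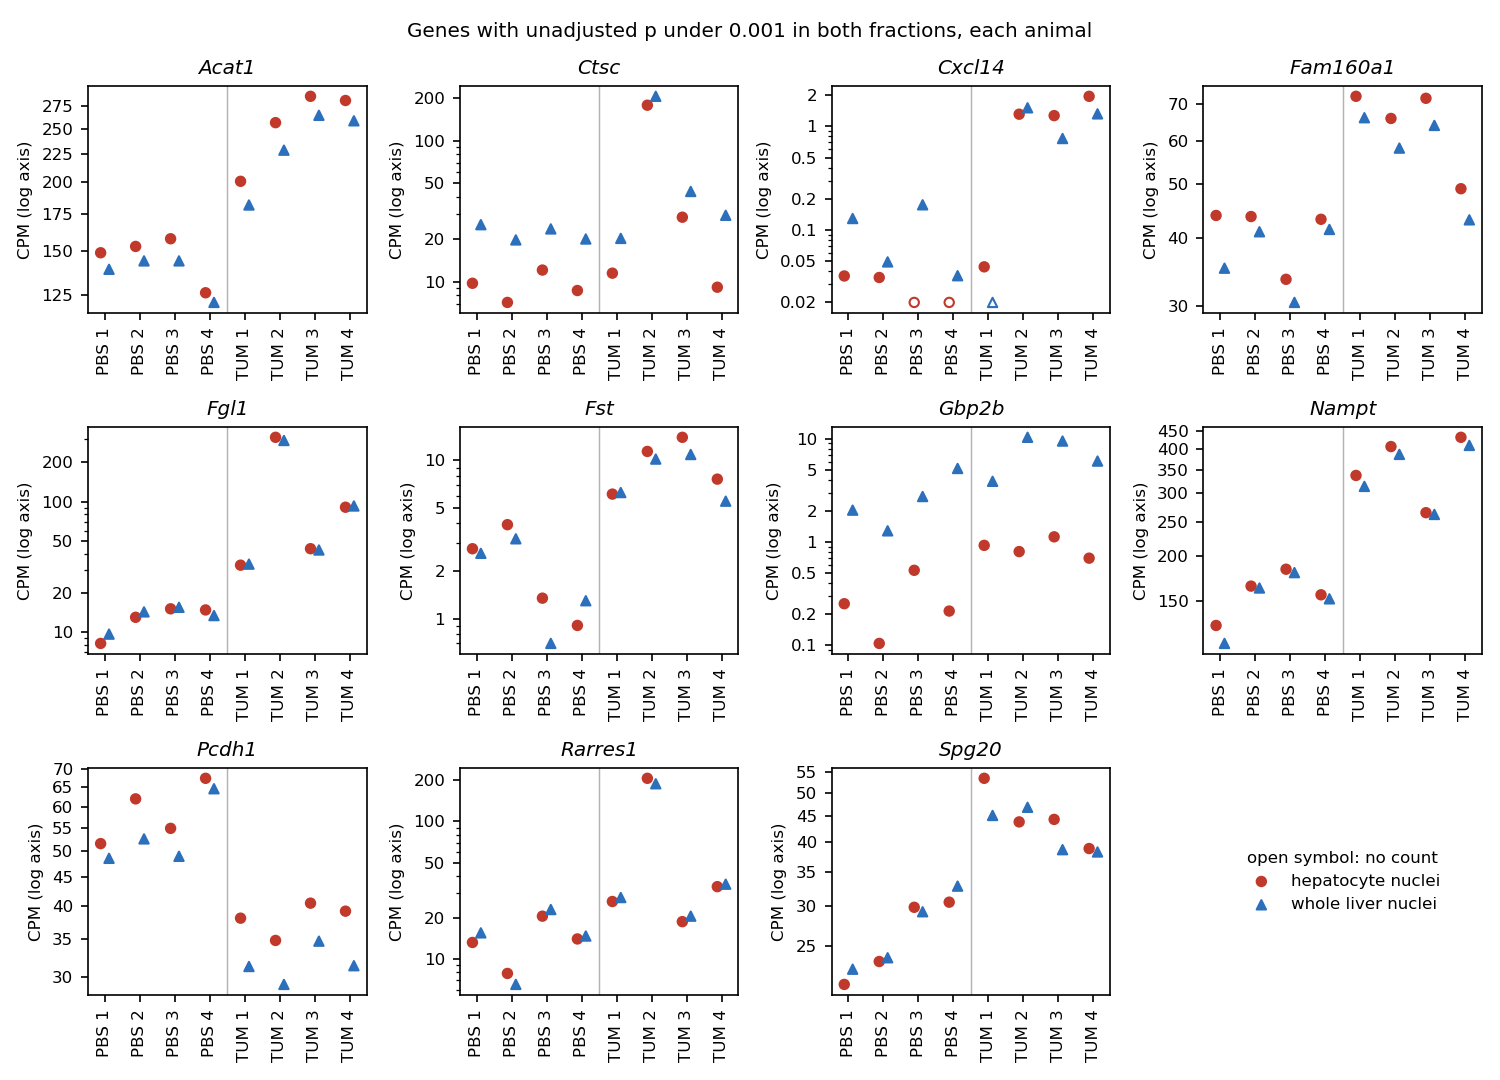
Level of the 11 genes in CPM (log axis, 1 panel a gene) in each of the 8 animals, with circles for hepatocyte nuclei, triangles for whole liver nuclei and open symbols where a library had no count. Both fractions of an animal lie close together for most genes. TUM 1 stands with the PBS animals for Cxcl14, and TUM 2 is far above all other animals for Ctsc, Fgl1 and Rarres1.

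The tumour effect itself was compared between the fractions with the animal as a block, and edgeR called 0 of 14054 genes (0%), with 265 at an unadjusted p under 0.05. Of the 5 genes with the smallest p, Pmepa1 (chromosome 2, 173224465 to 173276533), a transmembrane gene that TGF-beta induces, measured 6.08, 3.52, 8.14 and 10.8 CPM in hepatocyte nuclei of TUM 1 to 4 against 2.37, 2.54, 3.31 and 2.14 CPM in PBS 1 to 4. Its whole liver values were 11.5, 9.99, 17.9 and 17.2 CPM against 11.7, 11.6, 11.5 and 9.37 CPM, so that the groups were separate in the hepatocyte fraction and overlapped in the whole liver fraction. The difference between the effects was 1.07 on the log2 scale (SE 0.28, edgeR adjusted p = 1). Nqo1, an NRF2-induced quinone reductase gene, and Glt28d2 had differences of 1.08 and 0.41, and Igfbp3, an IGF-binding protein gene of non-parenchymal cells, of -1.28, each with an edgeR adjusted p of 1. Kcnj5, a potassium channel gene, had 0 counts in hepatocyte nuclei of all 4 tumour-bearing animals and 1, 1, 4 and 2 counts in PBS 1 to 4, which is at the limit of detection.

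Gene lists for liver processes and cell types were read by counts and medians, beside the same over all genes tested. Among all genes, 371 were higher and 201 lower at an unadjusted p under 0.05 in the bead fraction (511 and 279 in the whole liver), and the median log2 fold change was 0.01 and 0.00. The log2 fold change was positive for 6853 of 13274 genes in the bead fraction and 6909 of 13738 in the whole liver. No member of any list was called by edgeR in either fraction or in the sums, so the values below are differences that did not pass the test.

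Acute phase genes leaned higher. Of 28 tested, 26 had a positive log2 fold change in the bead fraction and 24 in the whole liver, with medians of 0.72 and 0.65, and 8 were at an unadjusted p under 0.05 in each fraction. The fibrinogen chain gene Fga (chromosome 3, 83026153 to 83033617) measured 218, 380, 187 and 187 CPM in the hepatocyte nuclei of TUM 1 to 4 against 115, 101, 100 and 128 CPM in PBS 1 to 4, a log2 fold change of 1.13 (SE 0.34, edgeR adjusted p = 0.538). Hpx (chromosome 7, 105591611 to 105600116), which encodes hemopexin, measured 130, 311, 161 and 139 CPM against 111, 102, 93.4 and 111 CPM, a log2 fold change of 0.83 (SE 0.27, edgeR adjusted p = 0.668). In both genes TUM 2 was highest and the other 3 tumour-bearing animals also lay above the PBS range. Without TUM 2 the medians of the list were 0.64 and 0.55 with 5 and 7 higher at an unadjusted p under 0.05 and 1 and 0 lower. Low values in PBS 1 and PBS 2 were part of the lean. Against the median of the 8 animals, the 22 measured members had medians of -0.41, -0.60, -0.05 and -0.09 in hepatocyte nuclei of PBS 1 to 4. Those of TUM 1 to 4 were 0.32, 0.10, 0.07 and 0.54.

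Members of the serum amyloid A family differed in which animals stood high. Saa1 (chromosome 7, 46740499 to 46742980), whose reads its close copies may share, measured 2.87, 0.848, 1.01 and 11.5 CPM in hepatocyte nuclei of TUM 1 to 4 and 0.432, 0.348, 0.898 and 1.02 CPM in PBS 1 to 4. Its whole liver values were 1.37, 1.56, 1.17 and 8.41 CPM against 0.345, 0.738, 0.699 and 0.724 CPM, with TUM 4 far above all other animals in both fractions. Saa4 (chromosome 7, 46727999 to 46732543) measured 177, 59.4, 80.2 and 248 CPM in hepatocyte nuclei of TUM 1 to 4 against 61.5, 57.9, 208 and 95.3 CPM in PBS 1 to 4, so that PBS 3 stood high with TUM 1 and TUM 4. For Saa1 the log2 fold change of the sums was 2.56 (SE 0.75, edgeR adjusted p = 0.643) and 1.26 without TUM 4. Stat3 (chromosome 11, 100886810 to 100939511), the transcription factor of the interleukin 6 pathway, measured 183, 280, 291 and 246 CPM in hepatocyte nuclei of TUM 1 to 4 against 170, 174, 189 and 172 CPM, so that TUM 1 alone lay within the PBS range (log2 fold change 0.51, SE 0.18, edgeR adjusted p = 0.845). The list of interleukin 6, JAK and STAT3 genes as a whole had medians of 0.07 and 0.12, with 4 of 19 higher at an unadjusted p under 0.05 in each fraction (Stat3, Socs2, Fos and Myc). Of these, Socs2 and Myc were at least 2-fold above the median of the 8 animals in both fractions in TUM 2 alone, and as far below it in PBS 1.

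Lipogenic genes leaned lower. Of 23 tested, 6 had a positive log2 fold change in each fraction, the medians were -0.27 and -0.28, and 3 and 4 were lower at an unadjusted p under 0.05. Pklr (chromosome 3, 89136142 to 89146594), the liver pyruvate kinase that feeds lipogenesis, measured 125, 94.3, 113 and 327 CPM in hepatocyte nuclei of TUM 1 to 4 against 369, 312, 422 and 439 CPM in PBS 1 to 4. TUM 1, 2 and 3 were well below every PBS animal and TUM 4 lay within the PBS range (log2 fold change -1.23, SE 0.55, edgeR adjusted p = 1). Dgat2 (chromosome 7, 99153663 to 99182713), the last enzyme of triglyceride synthesis, measured 390, 226, 390 and 447 against 552, 373, 737 and 477 CPM. Without TUM 2 the medians were -0.12 and -0.19 with 0 and 1 lower at an unadjusted p under 0.05, so the lean of this list was weaker without that animal. Cholesterol synthesis genes had medians of -0.19 and -0.25 over 22 genes with 0 and 1 lower at that level.

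Summed transcripts of leukocyte and macrophage lists were higher in 3 of the 4 tumour-bearing livers. In whole liver nuclei the 9 tested neutrophil genes summed to 5.07, 10.8, 10.7 and 9.24 CPM in TUM 1 to 4 against 6.38, 4.43, 5.03 and 4.42 CPM in PBS 1 to 4. Genes of monocytes and recruited myeloid cells (11 tested) summed to 39.1, 75.1, 74.6 and 69.6 CPM against 51.6, 40.5, 44.1 and 42.9 CPM, and those of Kupffer cells and macrophages (18 tested) to 664, 944, 863 and 833 CPM against 638, 567, 786 and 665 CPM. TUM 2, 3 and 4 lay above all PBS animals for each of these lists, and TUM 1 lay among or below them. In the sums the pattern was not limited to myeloid lists. T and NK cell genes (11 tested) summed to 89.3, 126, 104 and 101 CPM against 82.7, 70.7, 98.6 and 78.9 CPM, and B and plasma cell genes (14 tested) to 235, 309, 264 and 295 CPM against 251, 251, 220 and 212 CPM, again with TUM 2, 3 and 4 above all PBS animals. Sums follow the most abundant members, and the single genes were mixed. Of the T and NK cell genes 7 had a positive and 4 a negative log2 fold change in whole liver nuclei (median 0.14). Of the B and plasma cell genes 10 were positive and 4 negative (median 0.30). In each list 1 gene was higher at an unadjusted edgeR p under 0.05. The bead fraction held 130 to 216 CPM of the B and plasma cell list (8 tested). How much of the whole liver sum of that list is B cell RNA was not tested. Erythroid genes (10 tested) did not follow the pattern, at 66.6, 89, 70 and 67.7 CPM against 73.6, 72, 80.2 and 65 CPM. In these bulk libraries more cells of a type and more RNA per cell cannot be told apart. The granulocyte colony-stimulating factor receptor gene Csf3r (chromosome 4, 126024659 to 126044975) measured 4.99, 9.6, 9.69 and 7.67 CPM in whole liver nuclei of TUM 1 to 4 against 5.91, 3.98, 4.5 and 3.76 CPM (log2 fold change 0.82, SE 0.20, edgeR adjusted p = 0.273). Csf3r is a member of the neutrophil list and made up most of its sum in each whole liver library. The neutrophil sum therefore describes mainly this gene and is no separate result. Without TUM 1, edgeR called 10 genes in whole liver nuclei, all higher, among them Acat1, Csf3r, Ctsc, Cxcl14, Fgl1, Klra2, Lilra5, Nampt and Pilra. Pilra and Lilra5 encode receptors of myeloid cells. TUM 1 was the tumour-bearing animal that lay with the PBS animals for the lists above, so its omission favours such calls. The whole liver library of TUM 1 was also the shallowest, and the part of depth in its values was not tested. S100a8, a defining neutrophil transcript, was at or near 0 throughout (0 to 0.289 CPM in whole liver nuclei). The bead fraction held 221 to 345 CPM of the macrophage list and 5.86 to 12.5 CPM of the monocyte list, with TUM 3 highest for both. The macrophage list was less depleted by the beads than the endothelial list. How much of its sum in either fraction is macrophage RNA was not tested.

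**Figure D2:**
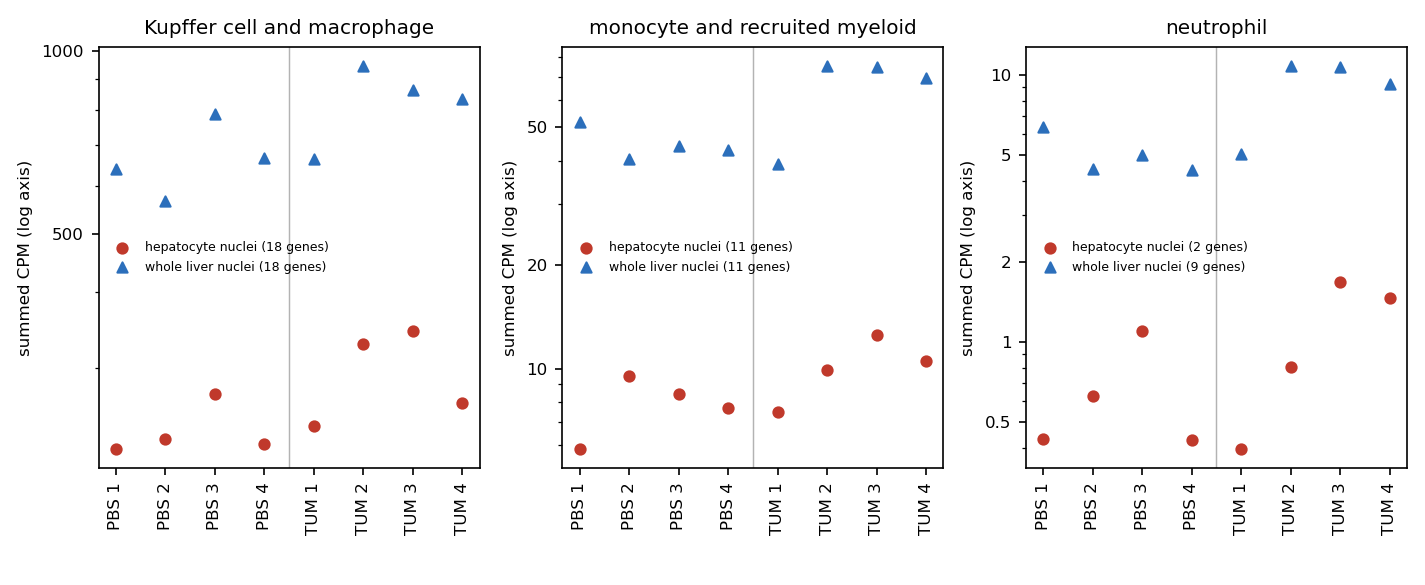
Summed CPM (log axis) of 3 lists of blood cell and macrophage genes in each of the 8 animals, with circles for hepatocyte nuclei and triangles for whole liver nuclei. In whole liver nuclei TUM 2, 3 and 4 lie above the 4 PBS animals in all 3 panels, and TUM 1 lies among or below them. The neutrophil sum in whole liver nuclei is mostly the gene Csf3r.

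Interferon-induced genes differed little and mostly in the same direction. Of 31 tested in hepatocyte nuclei 28 were positive, and of 32 in whole liver nuclei 31, with medians of 0.23 and 0.31, and 4 and 6 were higher at an unadjusted p under 0.05. Zbp1 (chromosome 2, 173206612 to 173218922), a nucleic acid sensor gene, measured 3.86, 11.7, 8.21 and 6.89 CPM in whole liver nuclei of TUM 1 to 4 against 3.23, 3.29, 2.49 and 3.84 CPM (log2 fold change 1.26, SE 0.41, edgeR adjusted p = 0.533). TUM 1 was level with the highest PBS animal. Without TUM 2 the medians were 0.17 and 0.22 with 1 and 2 higher at that level.

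Clock genes did not lean to either side. The core clock list had medians of -0.05 and -0.08 over 18 genes, with 0 and 1 lower at an unadjusted p under 0.05. Nr1d1, which encodes the repressor REV-ERB alpha, measured 84.7, 107, 139 and 51.7 CPM in hepatocyte nuclei of TUM 1 to 4 against 135, 161, 68 and 130 CPM in PBS 1 to 4. The values of both groups ran through each other, with TUM 4 and PBS 3 lowest. Arntl (BMAL1) and Dbp, a clock output gene, had log2 fold changes of the sums of 0.11 (SE 0.43) and -0.19 (SE 0.41), each with an edgeR adjusted p of 1.

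Genes followed in every comparison because they mark acute phase, growth hormone, sex-biased or metabolic states in the liver were not called either. In the animal sums the log2 fold change was 1.73 for Lcn2 (lipocalin 2, which binds bacterial siderophores), 2.03 for Orm2, 0.80 for Itih3, 0.36 for Mt2 and -0.32 for Lbp, all acute phase or stress genes. Lcn2 and Orm2 rested on few counts, and TUM 4 was highest for both. Its hepatocyte and whole liver libraries held 45 and 34 counts of Lcn2 and 25 and 28 of Orm2. The other libraries held 0 to 31 and 0 to 13 counts. Among growth hormone-dependent and sex-biased genes the log2 fold change was 1.32 for Cux2, 0.01 for Hsd3b5, -0.41 for Slco1a1 and -1.11 for Cyp4a12a. Cyp4a12a (chromosome 4, 115299046 to 115332815), a male-biased P450 gene with close copies, measured 13.9, 52.4, 19.3 and 21.8 CPM in whole liver nuclei of TUM 1 to 4 against 35, 84.7, 43.6 and 76 CPM in PBS 1 to 4. TUM 2 overlapped the PBS animals and the other 3 lay below them. The values of Nr1d2 (-0.06), Igfbp1 (0.01), Me1 (-0.04) and Osmr (0.02) were near 0, and the edgeR adjusted p of each gene of this paragraph was 1. The direction of Lbp, Nr1d2, Igfbp1, Hsd3b5, Me1 and Osmr depended on single animals or on the fit.

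Each animal was also described on its own. Counted in both fractions with the same sign, genes at least 2-fold from the median of the 8 animals numbered 108 (0.983%), 85 (0.774%), 101 (0.919%) and 53 (0.482%) in PBS 1 to 4, and 115 (1.05%), 303 (2.76%), 108 (0.983%) and 105 (0.956%) in TUM 1 to 4, of 10987 genes each. TUM 2 therefore stood apart, with 194 genes higher and 109 lower, and the other 3 tumour-bearing animals lay within or near the range of the PBS animals. That last statement depended on the reference: measured from the median of the 4 PBS animals alone, which draws PBS counts down by construction, the counts were 66, 79, 89 and 35 in PBS 1 to 4 and 178, 336, 158 and 164 in TUM 1 to 4, so that all tumour-bearing animals lay above all PBS animals. The genes named for single animals in the next paragraphs were chosen by these differences or as list members after their values were seen, which are a description and carry no test.

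**Figure D3:**
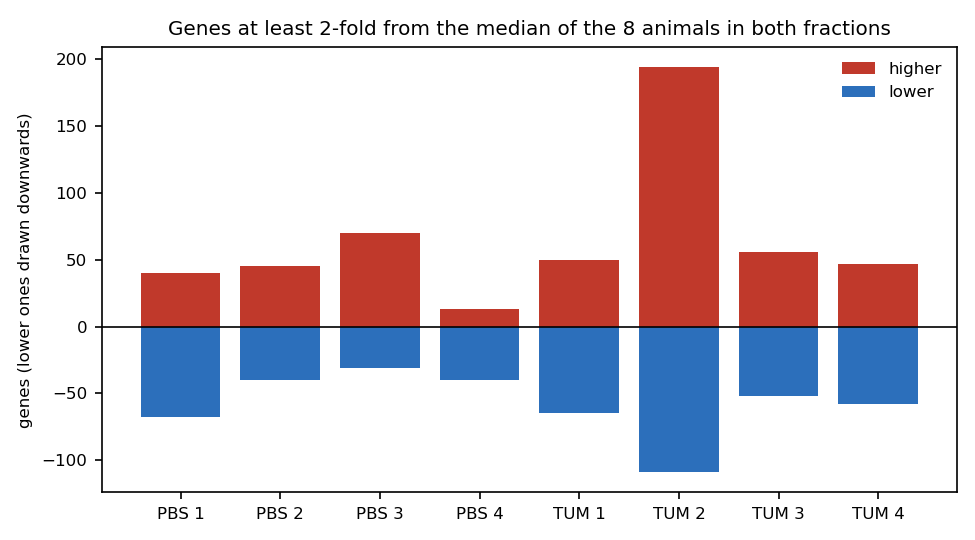
Number of genes at least 2-fold from the median of the 8 animals in both fractions with the same sign, higher ones drawn upwards and lower ones downwards, for each animal. TUM 2 has 194 higher and 109 lower genes, more than any other animal.

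In TUM 2 the largest differences were gains of RNA that was scarce or low elsewhere. Moxd1, a monooxygenase-like gene of male-biased expression in mouse liver (chromosome 10, 24223517 to 24302783), measured 200 CPM in hepatocyte nuclei of TUM 2 and 184 CPM in its whole liver library. The other tumour-bearing animals held 0.0441, 2.28 and 14.3 CPM and the PBS animals 0.144, 20.2, 0.367 and 0.0534 CPM in hepatocyte nuclei. Ugt2b37 (chromosome 5, 87240492 to 87254788), a glucuronosyltransferase gene whose reads its paralogs may share, measured 53.8 CPM against 0.036 to 1.5 CPM in the other 7. Egr1 (chromosome 18, 34861207 to 34864956), an immediate early transcription factor gene, measured 67.5 CPM against 1.15 to 5.49 CPM. Gbp11 (chromosome 5, 105323026 to 105346472), an interferon-induced GTPase gene, measured 520 CPM against 18 to 68 CPM. C8b (chromosome 4, 104766317 to 104804548), a complement gene, measured 923 CPM against 38.4 to 140 CPM. Its own whole liver library gave 54.2, 56, 494 and 845 CPM for the last 4 genes, close to the hepatocyte values.

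Growth hormone targets stood high in TUM 2. Of 13 measured genes of the growth hormone and IGF1 axis, 6 were at least 2-fold higher in both fractions (Igf1, Socs2, Cish, Prlr, Onecut1 and Lifr) and 0 lower. Over all genes the share in either direction was 2.76%, and the median difference of the list was 1.06 in hepatocyte and 0.96 in whole liver nuclei. Igf1 (chromosome 10, 87859056 to 87937047), the growth factor that the liver releases under growth hormone, measured 4070 CPM in hepatocyte nuclei of TUM 2, 1420, 963 and 1620 CPM in TUM 1, 3 and 4, and 440, 1530, 1110 and 1240 CPM in PBS 1 to 4. Socs2 (chromosome 10, 95411490 to 95416857), a feedback inhibitor of the growth hormone receptor, measured 61.2 CPM against 1.83 to 11.2 CPM in the other 7. Cish (chromosome 9, 107296689 to 107301961), a related STAT5 target, measured 70.4 CPM against 9.6 to 36.8 CPM. In the group comparison Igf1 had a log2 fold change of 0.92 (SE 0.52, edgeR adjusted p = 1), and PBS 1 was the lowest animal.

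Part of the genes of glucose and lipid storage and of glucocorticoid action stood low in TUM 2. In the list of gluconeogenesis and glycogen genes 8 of 24 were lower (among them G6pc, Ppp1r3b, Ppp1r3c, Ppp1r3g, Sik1, Tat and Sds), in the lipogenesis list 6 of 22 (Fasn, Acly, Elovl3, Thrsp, Gpam and Pklr), and none of either list was higher. In the glucocorticoid list 6 of 21 were lower and 1 was higher, while PBS 1 had 8 of the 21 lower and 0 higher. Tat (chromosome 8, 109990436 to 109999804), the tyrosine aminotransferase that glucocorticoids and glucagon induce, measured 157 CPM in hepatocyte nuclei of TUM 2 against 1150 to 2560 CPM in the other 7. Fasn (chromosome 11, 120805958 to 120824547), fatty acid synthase, measured 99 CPM against 285 to 889 CPM. G6pc (chromosome 11, 101367730 to 101377903), the last enzyme of glucose release, measured 71.1 CPM against 198 to 990 CPM. TUM 2 was the lowest of the 8 animals for these 3 genes in both fractions. Acute phase genes were higher in the same animal for 8 of 22, and lower for 1. The fibrinogen chains illustrate this: Fgb (chromosome 3, 83042305 to 83049790) measured 743 CPM in hepatocyte nuclei of TUM 2 against 163 to 245 CPM in the other 7, and Fgg (chromosome 3, 83007896 to 83015049) 551 against 86.7 to 170 CPM.

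**Figure D4:**
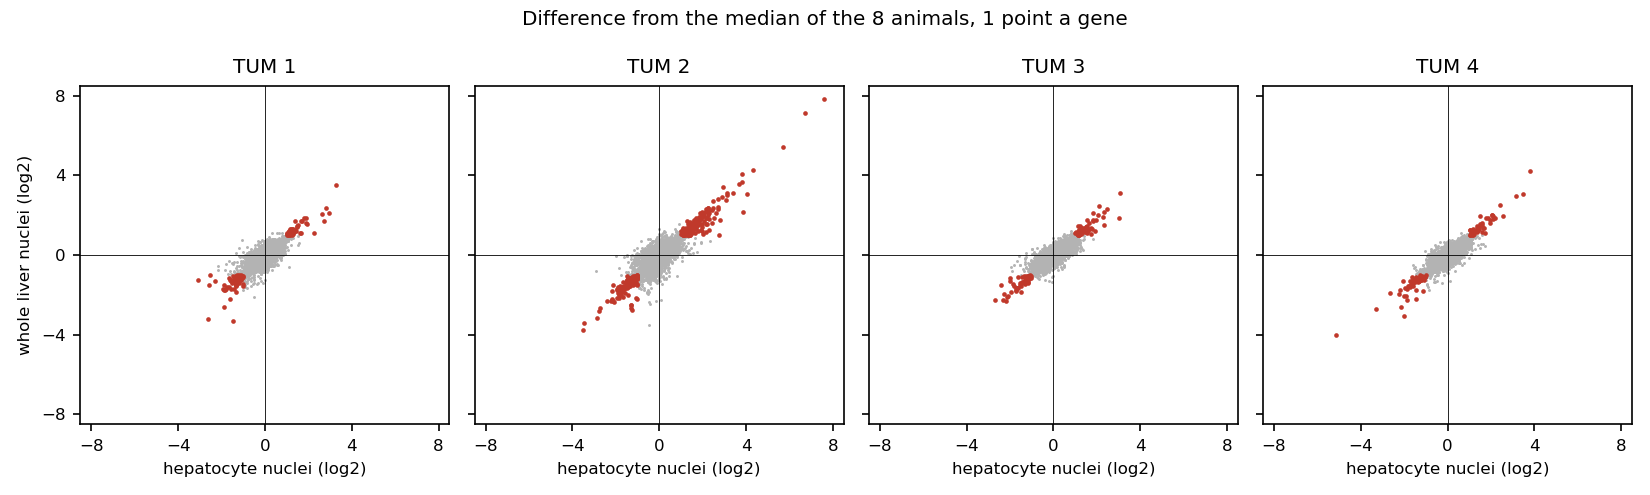
Log2 difference of each gene from the median of the 8 animals in hepatocyte nuclei (x axis) and whole liver nuclei (y axis), 1 panel for each tumour-bearing animal, with genes at least 2-fold away in both fractions with the same sign in red. The points lie along the diagonal in all 4 panels, and TUM 2 has 303 red points against 105 to 115 in the others.

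In TUM 4, acute phase genes and genes of protein folding stood high. It held the highest Saa1, and 5 of 22 acute phase genes were at least 2-fold higher in both fractions (Saa1, Saa4, Orm1, Orm3 and Fgl1) and 0 lower. Of 21 genes of the unfolded protein response 4 were higher (Pdia6, Creld2, Manf and Hyou1) and 0 lower, with a median difference of 0.44 in each fraction. Manf (chromosome 9, 106887415 to 106891938), a secreted protein of the endoplasmic reticulum, measured 17.2 CPM in hepatocyte nuclei against 2.84 to 8.51 CPM in the other 7, and Creld2 (chromosome 15, 88819646 to 88826681) 31.4 against 4.46 to 12.5 CPM. Drug metabolism genes were lower in this animal for 7 of 25, 6 of them cytochrome P450 genes and 1 the carboxylesterase gene Ces2a. Cyp4a10 and Cyp4a14, targets of PPAR alpha with near-identical copies, measured 0.0662 and 0 CPM in hepatocyte nuclei of TUM 4 against 0.8 to 28.1 and 0.339 to 6.05 CPM in the other 7. The 0 of Cyp4a14 allows up to 0.0993 CPM.

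In TUM 3, Pdgfrl (chromosome 8, 40926233 to 40990770), a gene of a PDGF receptor-like protein, measured 311 CPM in the hepatocyte and 281 CPM in the whole liver library, against 13 to 46.1 and 14.5 to 45.4 CPM in the other 7. Cyp4a10 was highest in the same animal at 28.1 CPM, and Cyp2c70, a bile acid hydroxylase gene, was at 64.2 CPM against 64.3 CPM in PBS 1 and 246 to 1220 CPM in the others. In TUM 1, glucocorticoid-induced genes were higher for 7 of 21 (Fkbp5, Tsc22d3, Zbtb16, Ddit4, Fam107a, Lpin1 and Slc10a2) and 0 lower. PBS 3 likewise had 7 of the 21 higher and 0 lower. Cml5 was lowest in TUM 1 at 0.485 CPM against 1.55 to 4.42 CPM, and Cyp2b9, a female-biased P450 gene with close copies, highest at 10.6 CPM against 0.0696 to 4.14 CPM.

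The glucocorticoid genes varied within both groups by more than they differed between them. Fkbp5 (chromosome 17, 28398753 to 28486149), a steroid receptor co-chaperone gene, measured 1070, 285, 136 and 509 CPM in hepatocyte nuclei of TUM 1 to 4 and 38.9, 75, 1100 and 283 CPM in PBS 1 to 4. TUM 1 and PBS 3 were alike and highest, and PBS 1 and PBS 2 lowest. Zbtb16 (chromosome 9, 48654297 to 48835945), a zinc finger gene, measured 3580, 424, 357 and 2190 CPM in TUM 1 to 4 against 317, 502, 4120 and 2130 CPM in PBS 1 to 4, with TUM 2, TUM 3, PBS 1 and PBS 2 far below the other 4. The median difference of the whole list in hepatocyte nuclei ran from -0.87 in TUM 2 and -0.67 in PBS 1 to 0.51 in PBS 3 and 0.53 in TUM 1. In the group comparison the median log2 fold change of its 24 genes was 0.06 in hepatocyte and 0.03 in whole liver nuclei.

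PBS animals showed outlying genes of their own, which give the scale for the tumour-bearing ones. Slc15a2 (chromosome 16, 36750164 to 36784962), a peptide transporter gene, had 0 counts in hepatocyte nuclei of PBS 4, which allows up to 0.16 CPM, and 0.362 CPM in its whole liver nuclei, against 6.26 to 25.9 and 8.04 to 35.8 CPM in the other 7. Serpina3k (chromosome 12, 104338486 to 104345739), a protease inhibitor gene with close copies, measured 155 CPM in PBS 1 against 837 to 2920 CPM in the other 7. Scn2a1, a sodium channel gene, was highest in PBS 2 at 6.19 against 0.163 to 1.23 CPM, and Bhmt, betaine-homocysteine methyltransferase, in PBS 3 at 526 against 36.7 to 214 CPM.

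**Figure D5:**
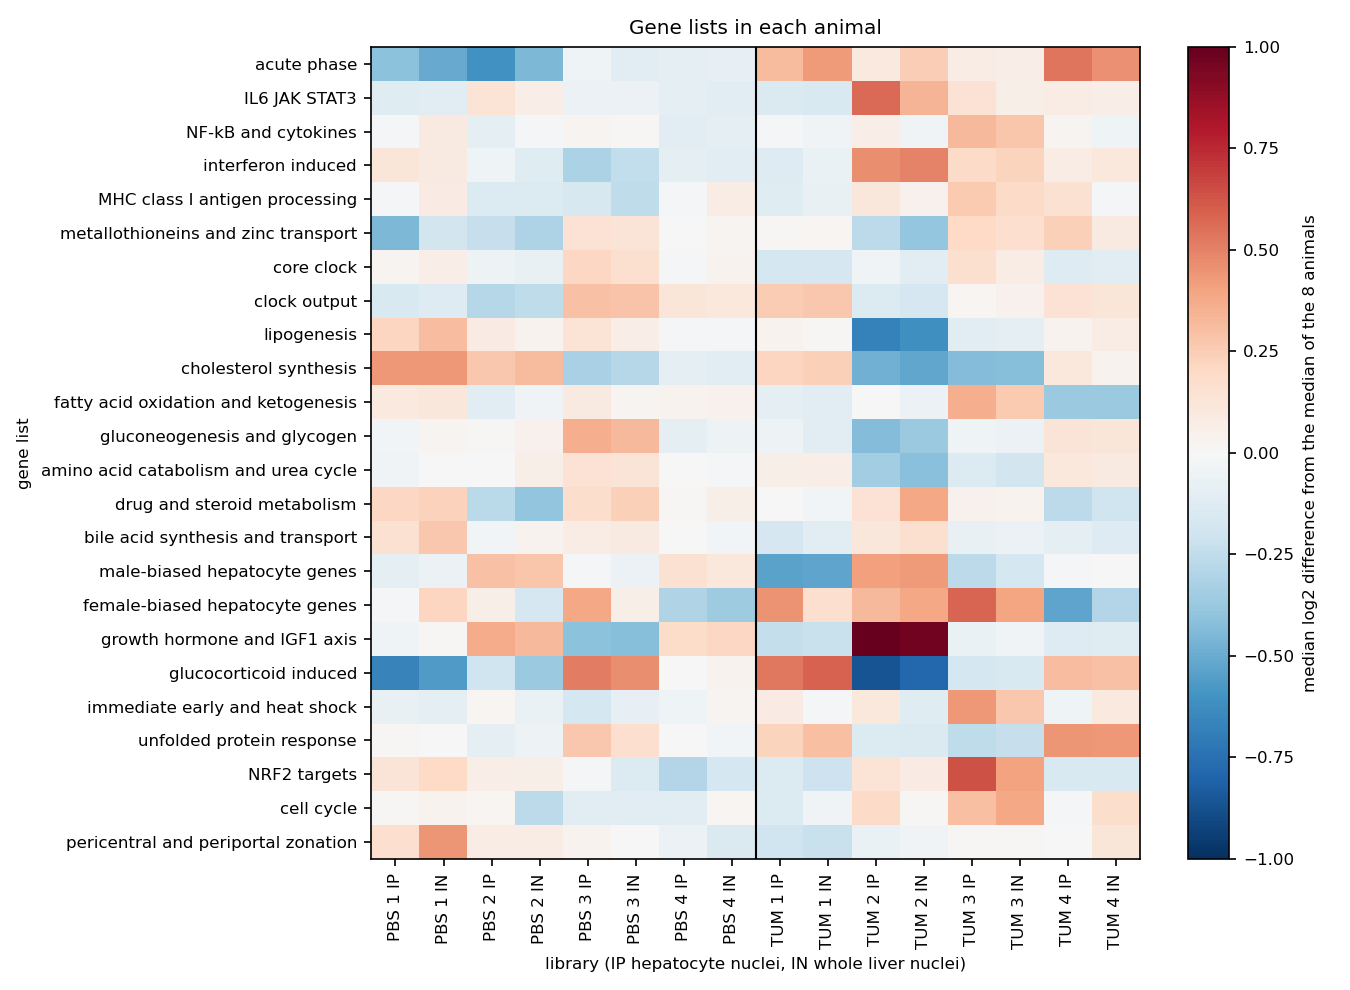
Median log2 difference of the measured members of 24 process lists from the median of the 8 animals, with 1 column a library (IP hepatocyte nuclei, IN whole liver nuclei) and a vertical line between PBS and tumour-bearing animals. Neighbouring columns of an animal have like colours. The growth hormone and IGF1 axis is high in TUM 2, and the glucocorticoid list is low in TUM 2 and also in PBS 1.

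The MC38 effect was compared with those of the cachexia-inducing 8025 tumour in the same strain and of NC26, a weight-stable tumour in BALB/c mice, each with 4 tumour-bearing animals of the same genotype against 4 PBS animals of their own, in the animal sums. The 8025 contrast called 5496 of 14258 genes (38.5%) and the NC26 contrast 59 (0.414%). The MC38 effect differed from the 8025 effect in 2270 genes (15.9%) by the edgeR contrast of both effects, and from the NC26 effect in 0 genes (0%; 775 at an unadjusted p under 0.05). Hsd3b5, a male-biased steroid enzyme gene, had a log2 fold change of 0.01 with MC38 and -8.43 with 8025, a difference of 8.44 (SE 1.03, edgeR adjusted p of the difference 3.92e-06). Saa1 had log2 fold changes of 2.56 and 7.08, a difference of -4.53. Nampt had 1.19 with MC38 and -0.29 with 8025 (neither called, edgeR adjusted p = 0.106 and 0.366), and the difference of 1.47 was called (edgeR adjusted p = 0.00441). Fgl1 had positive log2 fold changes with each tumour, 3.19 with MC38, 4.69 with 8025 and 5.25 with NC26. Those of Fst were 2.09, 2.24 and 1.26. The MC38 effects were not called (edgeR adjusted p = 0.0981 for Fgl1 and 0.153 for Fst), nor was the NC26 effect of Fst (edgeR adjusted p = 0.299). No difference between the effects of either gene was called (edgeR adjusted p = 0.228 and 0.902 against 8025, 0.865 and 0.878 against NC26).

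The direction of single-animal genes was also set beside the 8025 contrast, which has its own controls. Of the genes at least 2-fold from the median that the 8025 contrast called, 45 of 59 in TUM 1, 96 of 149 in TUM 2, 32 of 49 in TUM 3 and 47 of 54 in TUM 4 had the sign of the 8025 effect. In PBS 1 to 4 the numbers were 14 of 54, 6 of 40, 21 of 47 and 4 of 21. Tumour-bearing and PBS animals are measured from the same median, so that a gene high in one group tends to be low in the other, and the shares of the groups are not independent. The 8025 contrast called 37.2% of the 10987 genes, and 39.6% to 51.4% of the genes counted for an animal.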

How the data were processed

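The authors deposited raw read counts over the span of each gene, introns included, for 20105 genes in 72 libraries, per the file headers; 2208 of these genes had no count. Nuclei were isolated and total RNA was sequenced with a stranded kit without poly-A selection, per the labels' protocols. The submitters' processing notes name STAR 2.4.2a, mm10 and DESeq2 1.24.0. The counting tool and its use of strand are not given in the sources used here, so reads of genes that overlap, or lie antisense to each other, may be mixed.

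Libraries were scaled with TMM, filtered with filterByExpr and fitted with edgeR 4.0.16 (quasi-likelihood test, R 4.3.3). Each fraction had its own fit of 36 libraries in 9 groups of 4, which share an estimate of the spread. Counts of both libraries of an animal were summed for the animal sums, and the fraction difference was fitted on all 72 libraries with the animal as a block. P-values were adjusted by Benjamini-Hochberg over all genes tested, and genes were called at an adjusted p under 0.05. The standard error is the size of the log2 fold change divided by the square root of F. Single animals were described by log2 CPM with a prior count of 2, and 0 counts by a limit of 3 counts. Named were the genes called in both fractions (0), the 5 with the smallest p of the fraction difference, 19 followed genes and the 5 most deviating genes of each animal; others were chosen after their values were seen. The members and lists were chosen with earlier results of these data known, and 8 list members were not analysed here. Alternatives were DESeq2 1.42.0, limma 3.58.1 voom, RLE scaling, other filters, the MC38 libraries alone, rRNA-like genes left out, the replicate number as a block, and leaving out each animal. Leaving out animals for list counts and for genes in both fractions was chosen after seeing the data. The scripts were tested on simulated data. Files of same-group libraries differed by more than sampling noise in all 24 pairs.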

Additional observations from a re-analysis of the deposited data

Results flagged for a closer look

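In 10 of 138 groups of 4 values of a gene examined (the 11 genes at an unadjusted p under 0.001 in both fractions, the 5 of the fraction difference and the 19 followed ones, by fraction and treatment) the gap between an extreme animal and its nearest neighbour took up most of the range of the group, which chance gives in about 1 in 20 groups. The number is thus near what chance gives. The share of the range was 0.854 for Cxcl14 in hepatocyte nuclei, where TUM 1 was low, and 0.938 for Fam160a1, 0.887 for Nqo1 and 0.882 for Igfbp3 in hepatocyte nuclei, where PBS 3, PBS 4 and PBS 1 were low. It was 0.873 for Glt28d2 in hepatocyte nuclei (TUM 1 low) and 0.944 for Pmepa1 in whole liver nuclei (PBS 4 low). In whole liver nuclei it was 0.857 for Saa1 in the tumour group (TUM 4 high) and 0.926 in the PBS group (PBS 1 low), 0.857 for Nr1d1 (PBS 3 low) and 0.831 for Osmr (TUM 4 low). For the number of genes at least 2-fold from the median it was 0.949, with TUM 2 high at 303 genes.

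The tumour effect differed from that of the 8025 tumour by the edgeR contrast of both effects in 17 of the 30 genes that were set against it for this purpose (the 11 and the 19 above); other genes named in the report were not counted here. Over all genes the contrast called 2270 of 14258 (15.9%). The 11 were chosen after their values were seen and the 19 as markers of liver states, so the higher share among the 30 is no result about them. The difference, MC38 minus 8025 on the log2 scale, was -4.53 for Saa1, -5.72 for Lcn2, -3.73 for Lbp, -3.05 for Itih3, -4.83 for Orm2 and -6.74 for Mt2 among acute phase and stress genes. It was -3.43 for Osmr and -0.98 for Stat3, the receptor and transcription factor of the interleukin 6 family pathway. Among metabolic and sex-biased genes it was 8.44 for Hsd3b5, 4.31 for Slco1a1, 5.66 for Cyp4a12a, 3.49 for Me1 and -4.10 for Igfbp1. It was -2.42 for the clock gene Arntl, 1.82 for its output gene Dbp, 1.47 for Nampt and -0.62 for Pcdh1.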

How the results depend on the processing

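The absence of calls depended on the tool and on single animals, and the cause was not tested. DESeq2 called 6 genes in hepatocyte nuclei, 14 in whole liver nuclei, 8 in the sums and 6 in both fractions, and limma voom 22 in both libraries of an animal jointly. A mean of at least 5 CPM gave 2 calls in whole liver nuclei (Acat1 and Nampt). Leaving out an animal gave 0 to 5 calls in hepatocyte nuclei, 0 to 10 in whole liver nuclei, 0 to 3 in the sums and 0 to 3 in both fractions, the highest each without TUM 1. In hepatocyte nuclei, leaving out PBS 3 gave 1 call (Tmem2). RLE scaling, no filter, the MC38 libraries alone and leaving out rRNA-like genes gave 0 calls in each comparison, and the fraction difference had 0 calls under all alternatives run, among them the fit with no replicate block, which had 108 genes at an unadjusted p under 0.05. DESeq2 was not run for the fraction difference.

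Tumour and PBS animals of the same replicate number did not deviate together (correlations -0.339 to 0.16 across genes), so the replicate numbers do not pair them. Animals with neighbouring animal numbers in the labels were not compared in this way. With the replicate number as a block edgeR called 1 gene in hepatocyte nuclei (Nedd9), 0 in whole liver nuclei and 0 in the sums.

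Genes at an unadjusted p under 0.05 in both fractions with the same sign numbered 207 to 389 when an animal was left out, the lowest without PBS 1 and the highest without PBS 3. Against the median of the 4 PBS animals, single-animal counts were 66 in PBS 1, 35 in PBS 4, 178 in TUM 1 and 164 in TUM 4, and TUM 2 kept the highest count at 336.

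Log2 fold changes of the sums near 0 turned sign. With the replicate block they were 0.021 for Lbp, -0.11 for Hsd3b5 and 0.070 for Me1, and with limma voom 0.013, -0.12 and 0.057. Leaving out an animal gave -0.60 to 0.39 for Lbp, -0.14 to 0.070 for Nr1d2, -0.36 to 0.49 for Igfbp1, -0.69 to 0.38 for Hsd3b5, -0.26 to 0.29 for Me1 and -0.092 to 0.13 for Osmr. Depth limits genes under 1 CPM, such as Cxcl14, where single libraries held 0 to 4 counts.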
